A study of Mus musculus with 2 samples.

Results

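GATA4 occupied sites (OS) were examined at 9 genes of membrane traffic: the EHD genes Ehd1, Ehd2, Ehd3 and Ehd4, the F-BAR gene Pacsin2, the caveolins Cav1 and Cav2, the dynamin Dnm2 and the clathrin adaptor gene Dab2. The genes were selected on peaks of these same data, so the counts of OS at them are a description of the selection and were not tested. An OS was assigned to a gene when its midpoint lay in the gene body of the GENCODE M1 annotation or within 50 kb of it. By this rule 12 of the 4409 OS of the study lay at 5 of the 9 genes: 2 at Ehd1, 5 at Ehd3, 2 at Pacsin2, 1 at Dnm2 and 2 at Dab2. Ehd2, Ehd4, Cav1 and Cav2 held no OS.

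The study mapped where GATA4, a zinc finger transcription factor that recognizes the sequence WGATAR, is held on DNA in the liver of adult mice. In ChIP-seq, DNA that comes down with an antibody to the factor is sequenced, and places where reads pile up above the input DNA are called as peaks. The ChIP sample came from whole liver of C57BL/6 x Sv129 mice aged 2 to 3 months, with antibody GATA4 C-20, and the input sample was liver DNA of the same strain and age taken without antibody. This age is that of the labels, and the study's methods give a slightly older range for the ChIP mice. Neither sample carries an engineered allele or a treatment in its labels. By the study's methods a pair of biological replicates was made, each from the pooled livers of a pair of mice, and the peak lists cover both together. The labels give 1 ChIP sample and 1 input sample, so no value here has a replicate error, no p-value is given, and the spread between mice is unknown. Whole liver holds hepatocytes, endothelial cells and others, and from the peak lists the cell type in which any of these sites was occupied cannot be told apart. The study reports that deleting Gata4 in hepatocytes removed nearly all GATA4 from the sites it examined, and concludes that hepatocytes held it there. None of those sites was at the genes described here.

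The lists were deposited in mm9 coordinates: 4811 peaks of the caller SPP, 5867 peaks of the caller MACS2, and the 4409 peaks common to both, which are the OS. Every peak in every list carries the score 1000, so peak strength is not recorded. Each OS is therefore named below by its number in the common list, beside the number of the MACS2 peak that overlaps it by at least 1 bp. The files do not say what the numbers follow, although, by the methods, the signal value ordered the SPP peaks and the p-value the MACS2 peaks before reproducibility was assessed. Read totals are given in the study's methods but not in the files, and the depth behind a single site is unknown.

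EHD proteins are ATPases that assemble on membranes and shape endosomal tubules: EHD1 and EHD3 act in recycling from endosomes to the cell surface, EHD2 sits at the neck of caveolae, and EHD4 acts at early endosomes. Caveolae are small flask-shaped pits of the plasma membrane, common in endothelial cells, and their coat holds caveolin-1 and caveolin-2. Pacsin2 (syndapin II) bends membrane with its F-BAR domain and binds both EHD proteins and dynamin-2, the GTPase that cuts vesicles from the membrane, while Dab2 gathers receptors of the LDL receptor family into clathrin-coated pits.

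The sequences of the sites carry the letters that GATA4 is known to read, and those shown are, for each gene with an OS, the site of lowest list number, together with the sites that hold the most copies of the motif. In WGATAR, W is A or T and R is A or G, as in AGATAA. Capitals mark an exact match on either strand, and a match on the minus strand appears as its reverse complement, with TATC at its core. All are plus-strand mm9 sequence, 5′ to 3′. The leading site at Ehd3, OS 330 at chr17:74194991-74195249, held 2 matches. OS 1888, at chr17:74188895-74189080, lay 6.13 kb from it and held 3.
Ehd3 OS 330: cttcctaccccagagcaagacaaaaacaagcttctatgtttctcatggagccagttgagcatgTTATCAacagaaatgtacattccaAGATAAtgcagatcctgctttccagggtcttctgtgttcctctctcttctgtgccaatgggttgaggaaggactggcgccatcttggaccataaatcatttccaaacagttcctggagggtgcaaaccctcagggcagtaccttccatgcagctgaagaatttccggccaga
Ehd3 OS 1888: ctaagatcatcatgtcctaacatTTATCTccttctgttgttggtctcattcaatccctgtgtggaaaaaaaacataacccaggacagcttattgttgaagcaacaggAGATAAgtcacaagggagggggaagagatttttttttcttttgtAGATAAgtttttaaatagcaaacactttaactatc

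At Ehd1 the site of lowest number was OS 2116, at chr19:6349196-6349381, with 1 match near its middle, and the intronic OS 2652, at chr19:6284548-6284651, packed 3 matches into 104 bp. At Pacsin2 the site just past the 3′ end of the gene, OS 2481 at chr15:83204682-83204810, was both the lowest in number and a holder of 3 matches, all on the plus strand.
Ehd1 OS 2116: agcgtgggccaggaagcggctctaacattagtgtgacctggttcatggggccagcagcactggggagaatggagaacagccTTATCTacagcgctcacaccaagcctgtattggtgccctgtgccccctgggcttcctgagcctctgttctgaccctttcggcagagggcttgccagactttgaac
Ehd1 OS 2652: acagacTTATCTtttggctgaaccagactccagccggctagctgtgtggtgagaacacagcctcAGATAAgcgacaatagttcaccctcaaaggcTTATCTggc
Pacsin2 OS 2481: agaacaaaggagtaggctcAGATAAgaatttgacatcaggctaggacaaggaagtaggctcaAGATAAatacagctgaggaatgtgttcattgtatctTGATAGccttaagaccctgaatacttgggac

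The single site at Dnm2, OS 3958, is shown by its central 300 bases, at chr9:21267711-21268010, because it held no match at all. At Dab2 the site of lowest number, OS 875, lies wholly in sequence that is exon in some coding transcripts of Dab2 and is not printed. The other Dab2 site, OS 1801 at chr15:6340775-6340950, is shown in its place and held 1 match.
Dnm2 OS 3958: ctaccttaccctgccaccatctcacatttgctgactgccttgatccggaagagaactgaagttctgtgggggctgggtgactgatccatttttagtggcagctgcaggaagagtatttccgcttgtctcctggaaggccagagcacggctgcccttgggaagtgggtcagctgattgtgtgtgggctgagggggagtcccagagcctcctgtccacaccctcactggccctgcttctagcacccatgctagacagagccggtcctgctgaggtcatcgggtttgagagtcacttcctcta
Dab2 OS 1801: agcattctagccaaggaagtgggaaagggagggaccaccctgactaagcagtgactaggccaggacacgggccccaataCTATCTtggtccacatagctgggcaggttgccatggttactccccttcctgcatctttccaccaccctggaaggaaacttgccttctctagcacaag

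Across the 4 EHD genes the sites were concentrated at Ehd3. Ehd3 (ENSMUSG00000024065.7, chromosome 17, 74154181 to 74181433, plus strand) is a gene of 27.3 kb with no other protein-coding gene within 50 kb, and none of its 5 OS fell inside it. Going along the direction of transcription, OS 2146 (99 bp) lay 33.6 kb upstream of the gene start and OS 931 (228 bp) 18.2 kb upstream. OS 1888 (186 bp) lay 7.55 kb past the end of the gene, OS 330 (259 bp) 13.7 kb past it, and OS 1499 (147 bp) 49.5 kb past it. Sites were thus called in both flanks of Ehd3 and none in its exons or introns, and neighbouring sites were 6.13 to 53.0 kb apart.

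All 5 sites at Ehd3 were called by both callers, with MACS2 numbers of 3223, 434, 1371, 333 and 1050 in the same order along the chromosome. OS 330 was the single member of the first 500 OS among the 12, and its numbers in the 3 lists, 330, 334 and 333, were close to each other. The start of Ehd3 was the nearest start of a protein-coding transcript for 4 of the 5. The exception was OS 1499, whose nearest start was that of Xdh, the xanthine dehydrogenase gene, at 68.5 kb.

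Ehd1 (ENSMUSG00000024772.8, chromosome 19, 6273971 to 6300096, plus strand) lies in a denser stretch, with 7 other protein-coding genes within 50 kb. OS 2652 (MACS2 number 1455) was in intron 3, 10.6 kb from the gene start. OS 2116 (MACS2 number 955) was 75.3 kb from the start, inside the neighbouring Map4k2, a kinase gene whose nearest transcript start was 8.05 kb away. Of the pair, OS 2652 was thus the one nearest to a start of Ehd1, at 7.87 kb. MACS2 alone called 2 further peaks here, number 5816 in intron 3 (1223 bp wide, with 7 WGATAR) and number 3645 (808 bp, with 2), which lay 0.221 kb upstream of a Map4k2 start.

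Ehd2 (ENSMUSG00000074364.4, chromosome 7, 16532326 to 16552916, minus strand) held no OS, and the nearest one, OS 1256, was 65.7 kb away. MACS2 alone called 1 peak in it, number 5093, a stretch of 337 bp in intron 4 with 2 WGATAR, 13.7 kb from the gene start. The nearest coding start to that peak was that of Gltscr2, 7.80 kb away. Ehd4 (ENSMUSG00000027293.7, chromosome 2, 119914911 to 119980342, minus strand) had no peak in any list, and its nearest OS, number 4060, was 291 kb away. The 4 paralogues therefore ranged from 0 to 5 OS. These are single values per gene without an error, so the order of the genes carries no measure of its precision.

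Pacsin2 (ENSMUSG00000016664.7, chromosome 15, 83206037 to 83295036, minus strand) held 2 OS that were 58.6 kb apart. OS 2481 (129 bp, MACS2 number 3634) lay 1.29 kb past the end of the gene, with a start of 1700001L05Rik as the nearest coding start, 7.04 kb away. OS 3300 (320 bp, MACS2 number 3896) lay in intron 1, 31.7 kb from the gene start. It covered the start of 1 of the 3 coding transcripts of Pacsin2, with its midpoint 45 bp upstream of that start. Both sites were thus in the later part of both lists, and 1 of them sat at an internal transcript start.

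The caveolin genes lie next to each other on chromosome 6, Cav2 (ENSMUSG00000000058.6) from 17231185 to 17239115 and Cav1 (ENSMUSG00000007655.9) from 17256335 to 17291452, both on the plus strand. No peak of any list fell within 50 kb of either. The nearest OS was 584 kb from Cav2 and 601 kb from Cav1, and the nearest peak of MACS2, number 3460, was 83.3 kb from Cav2 and 108 kb from Cav1. The windows of both genes overlap, so these are not independent observations. Sites below the callers' thresholds would not be listed, and their absence from the lists does not show absence of GATA4.

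Dnm2 (ENSMUSG00000033335.10, chromosome 9, 21229352 to 21312203, plus strand) held 1 OS, number 3958 of 4409 and 5308 of 5867 in the MACS2 list. It lay in intron 2, 38.5 kb from the gene start and 13.1 kb upstream of an internal transcript start. It had the highest number of the 12 sites in both lists. Of the 12 it was also the one with neither WGATAR nor the shorter forms WGATA or GATAR.

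Dab2 (ENSMUSG00000022150.9, chromosome 15, 6249788 to 6390712, plus strand) held its 2 OS within 4.07 kb of each other, around internal transcript starts in intron 1 of its longest transcript. OS 875 (205 bp, 6336692 to 6336896, MACS2 number 410) lay 87.0 kb from the annotated gene start but 15 bp from the nearest start of a Dab2 transcript. Of 12 coding transcripts, 5 began inside OS 875, and 6 had its midpoint in an exon. OS 1801 (176 bp, MACS2 number 1812) lay 0.742 kb from a further Dab2 start. OS 875 held 16 CpG dinucleotides, against 0 to 5 in each of the other 11 sites, and its GC content was 59.0%, the highest of the 12, where the range was 35.5% to 59.0%.

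**Figure D1:**
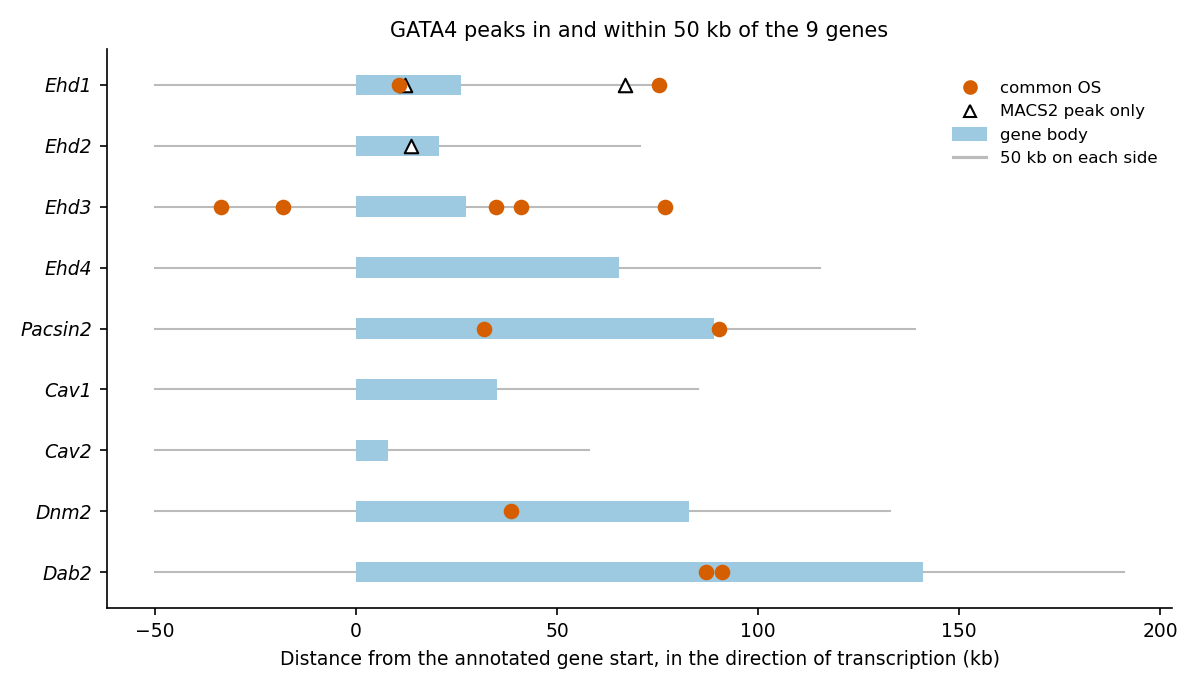
Position of each peak midpoint relative to the annotated start of its gene, in kb along the direction of transcription, for the 9 genes (rows). Circles are OS, triangles are peaks called by MACS2 alone, bars are gene bodies and lines are the 50 kb on each side. The 5 circles of Ehd3 flank its body, the 2 of Dab2 lie together at 87.0 and 91.1 kb, and Ehd4, Cav1 and Cav2 have no symbol.

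Placed among all 22238 protein-coding genes of the annotation, the counts at the 9 genes are as follows. At least 1 OS was held by 27.7% of all protein-coding genes and by 5 of the 9. At least 2 were held by 9.13% of all, and by Ehd1, Ehd3, Pacsin2 and Dab2. At least 5 were held by 106 genes, 0.477% of all, among which was Ehd3. Since peaks of these data chose the genes, nothing is read from the difference between the 9 and the background. Their windows, the gene body with 50 kb on each side, were also longer, with a median of 135 kb against 116 kb.

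An OS inside the gene body was found for 4 of the 9, Ehd1, Pacsin2, Dnm2 and Dab2, against 7.69% of all protein-coding genes. A MACS2 peak in the window was found for 6 of the 9, against 33.9% of all, the sixth being Ehd2. Only Pacsin2 and Dab2, 2 of the 9, had an OS within 1 kb of a start of their own coding transcripts, against 3.12% of all genes. Within the merged windows of the 9 genes, 1.31 Mb in all, there were 0.914 OS per 100 kb, and on the chromosomes that hold an OS there were 0.173 per 100 kb. The second density covers whole chromosomes, not gene windows, and the 9 genes were chosen on these peaks, so nothing is read from the difference.

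**Figure D2:**
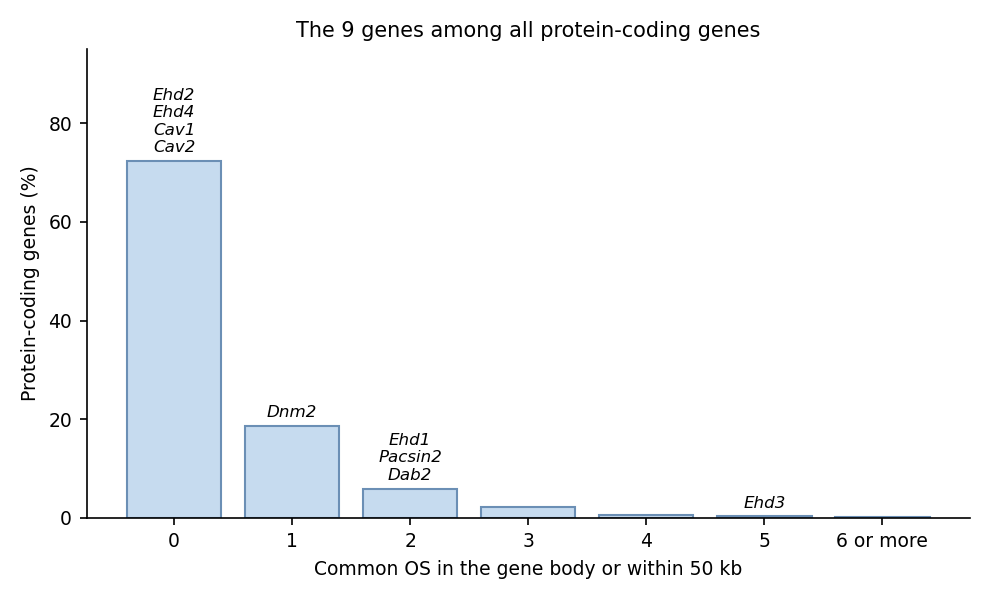
Percent of the 22238 protein-coding genes (y axis, from 0) that hold each number of OS in the body or within 50 kb (x axis), with the 9 genes named above their bar. The bars for 0, 1, 2 and 5 OS stand at 72.3%, 18.6%, 5.91% and 0.274%, and Ehd3 is the one gene of the 9 beyond 2 OS.

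The rule uses a fixed limit of 50 kb, and 2 sites lay just inside it, OS 2116 at 49.2 kb from Ehd1 and OS 1499 at 49.5 kb from Ehd3. For both, a start of another gene was nearer. Just outside lay OS 324, 51.1 kb upstream of Dab2, followed by OS 2948 at 57.4 kb and OS 526 at 69.0 kb, also upstream of Dab2. Dab2 was the gene of the nearest coding start for all 3 of these, and OS 324 (chromosome 15, 6198570 to 6198798, MACS2 number 583, 1 WGATAR) was ahead of all 12 counted sites in the common list. At 100 kb Dab2 would thus hold 5 OS, and Ehd3 would still hold 5. The body of Dab2 is longer, 141 kb against 27.3 kb, and no share of all genes was counted at 100 kb. The sites just outside Ehd2, OS 1256 at 65.7 kb and OS 2433 at 85.4 kb, had Gltscr1 and Zfp541 as the genes of the nearest start.

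The 12 sites were spread through the lists. Their numbers in the common list ran from 330 to 3958 with a median of 2002, and 8 of them were at most 2205. Over all OS the median number is 2205 by construction. The 95% order-statistic interval of the median of the 12, from 931 to 2652, spans that value. It treats the 12 sites as independent, although 5 of them are at Ehd3. In the MACS2 list the overlapping peaks ran from 333 to 5308, with a median of 1413 against 2195 for all OS. Width differed little, with medians of 186 bp for the 12 and 190 bp for all OS.

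**Figure D3:**
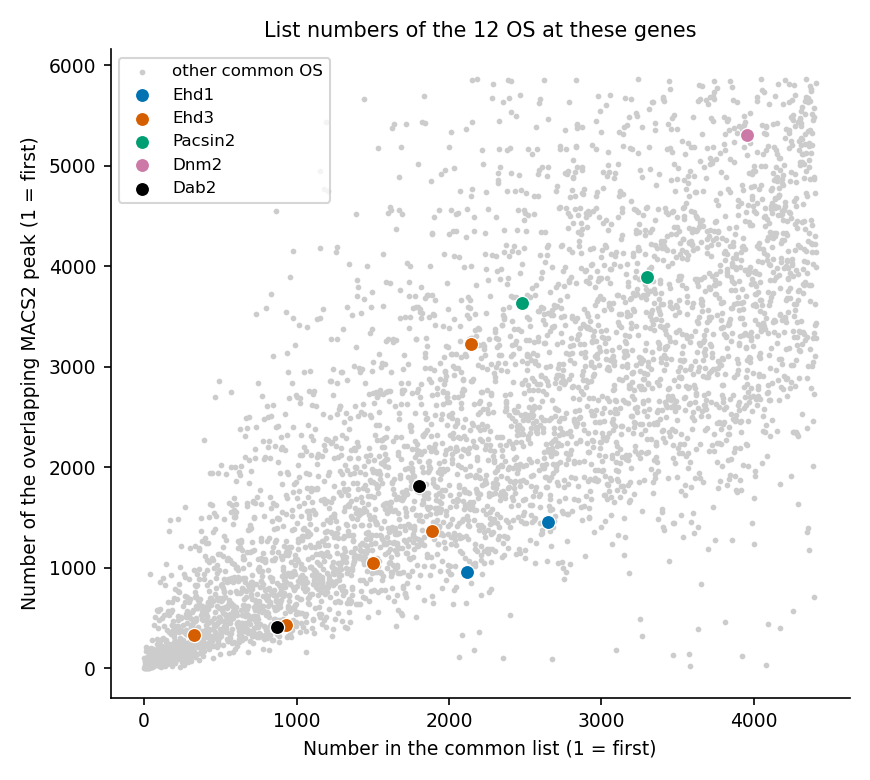
Number of each OS in the common list (x axis, 1 is first) against the number of the overlapping MACS2 peak (y axis), with the sites of each gene coloured and all other OS in grey. Among the 12 coloured sites, Ehd3 OS 330 is nearest to the origin and the Dnm2 site at 3958 and 5308 is farthest from it, and the sites of Ehd3, Dab2 and Ehd1 fall between 875 and 2652 on the x axis apart from OS 330.

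As to sequence, which the rule did not use, 9 of the 12 sites held WGATAR (75%, Wilson 95% interval 46.8 to 91.1), and 82.9% of all OS did. The interval holds the value for all OS, so no difference was detectable with 12 sites. The 3 sites without a match were Ehd3 OS 2146, Dnm2 OS 3958 and Dab2 OS 875. With the shorter forms WGATA or GATAR counted, 11 of the 12 had a match (91.7%, 64.6 to 98.5), against 92.9% of all OS. These intervals cover counting error only and treat the 12 sites as independent, although 5 of them are at Ehd3.

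Several copies of WGATAR stood together in 5 of the sites (41.7%), against 34.7% of all OS with 2 or more. Ehd1 OS 2652, Ehd3 OS 1888 and Pacsin2 OS 2481 held 3 each, so 3 of 12 sites (25%, 8.89 to 53.2) reached 3 copies, against 9.75% of all OS, a value inside the interval. The starts of adjacent copies were 24 to 84 bp apart. The closest pair, 24 bp apart on opposite strands, was in Ehd3 OS 330, and the widest, 84 bp apart, was in Ehd3 OS 1888. In Pacsin2 OS 2481 the 3 copies followed each other at 43 and 36 bp on the same strand, whereas in Ehd1 OS 2652 the spacings were 58 and 31 bp with the middle copy on the other strand.

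Of the 17 matches in the 12 sites, 13 were AGATAA (76.5%), 2 were TGATAA, at Ehd3 OS 931 and OS 330, and 1 each was AGATAG, at Dab2 OS 1801, and TGATAG, at Pacsin2 OS 2481. Over all OS, 44.6% of 5734 matches were AGATAA. Since 3 sites supply 9 of the 17 matches, the matches are not independent and no interval is given. The matches lay at a median of 37.0 bp from the midpoint, with 13 of 17 within 50 bp (76.5%). Over all OS the median was 28.0 bp, with 74.2% within 50 bp. The 12 sites were only 99 to 320 bp wide, so a match anywhere in a narrow site is close to its midpoint. These distances therefore do not show central placement.

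**Figure D4:**
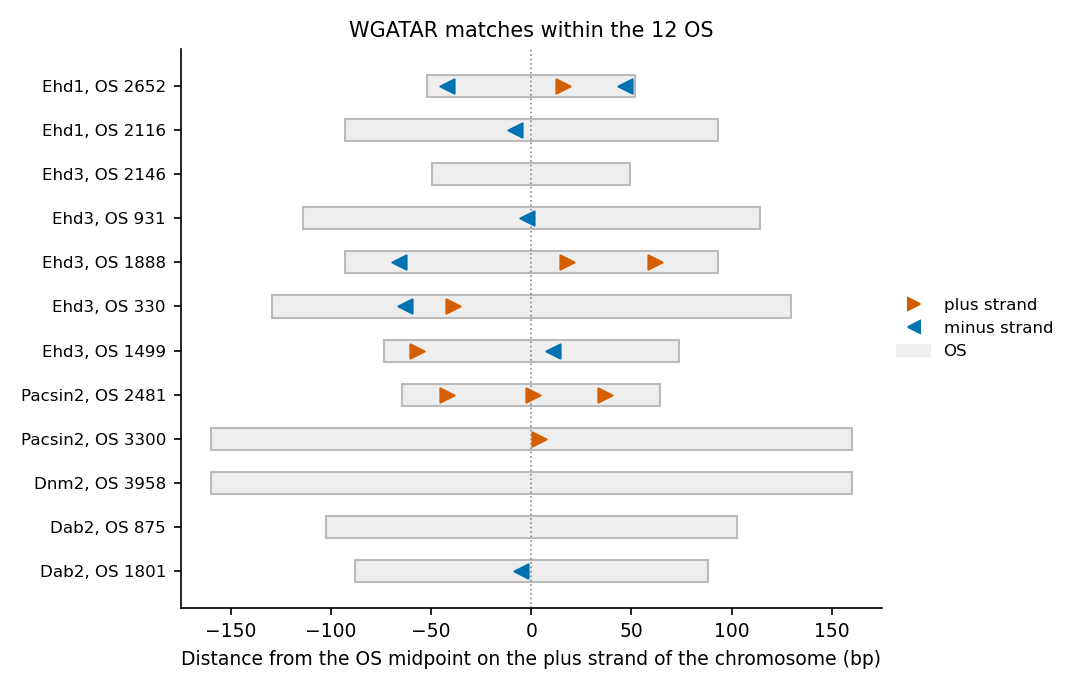
WGATAR matches within the 12 sites (rows), drawn to scale by distance from the site midpoint in bp (x axis, plus strand of the chromosome). Right-pointing and left-pointing triangles are matches on the plus and minus strand, and grey bars are the sites. Among the rows, 3 hold 3 triangles and 3 hold none, and the matches of Ehd1 OS 2116, Ehd3 OS 931, Pacsin2 OS 3300 and Dab2 OS 1801 lie within 8 bp of the midpoint.

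Other motifs were searched on both strands in the 200 bp around each midpoint. The forkhead motif, TGTTTAC or TATTTAC, was found in Ehd3 OS 931 and Pacsin2 OS 2481, 2 of 12 (16.7%) against 8.85% of all OS. The ETS core, AGGAAG or CGGAAG, was in 6 of 12 (50%) against 49.0%, among them Dnm2 OS 3958 and both Pacsin2 sites. The E-box CANNTG was in 7 (58.3%) against 61.9%, and the nuclear receptor motif AGGTCA was in Ehd1 OS 2116 and Pacsin2 OS 3300 (16.7%) against 24.5%. The AP-1 motif TGANTCA was in none of the 12 and in 7.28% of all OS. The differences between the 12 sites and all OS were not tested. A match is a run of letters, and the binding of the other factors was not measured.

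Position relative to promoters was mixed. The midpoint lay within 1 kb of a protein-coding start for 3 of the 12 sites (25%, 8.89 to 53.2) and for 14.8% of all OS, the 3 being Pacsin2 OS 3300 and both Dab2 sites. It lay more than 10 kb from one for 6 (50%, 25.4 to 74.6) and for 61.4% of all OS, and 5 of those 6 were at Ehd3, the sixth at Dnm2. Both intervals treat the 12 sites as independent, which sites of 1 gene are not, so they can be too narrow and partly describe Ehd3. By the longest coding transcript, 5 of the 12 midpoints fell in introns and 0 in exons, 2 were upstream of their gene and 5 downstream. For 9 of the 12 the nearest coding start belonged to the gene itself.

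The number of WGATAR in the DNA around a gene did not order the genes as the OS did. The windows of Cav1 and Cav2, without an OS, held 28.9 and 28.1 matches per 10 kb, above the 25.7 on the chromosomes that hold an OS. Ehd1, with 2 OS, held 13.9 per 10 kb, and Ehd2, with none, 13.8. Ehd3 held 287 matches in its window, 22.6 per 10 kb, and 8 of them were inside an OS. At Dab2, 1 of 626 was inside an OS, and at Cav1 none of 390. Genome-wide, 0.0872% of the 6574847 matches on these chromosomes were inside an OS.

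**Figure D5:**
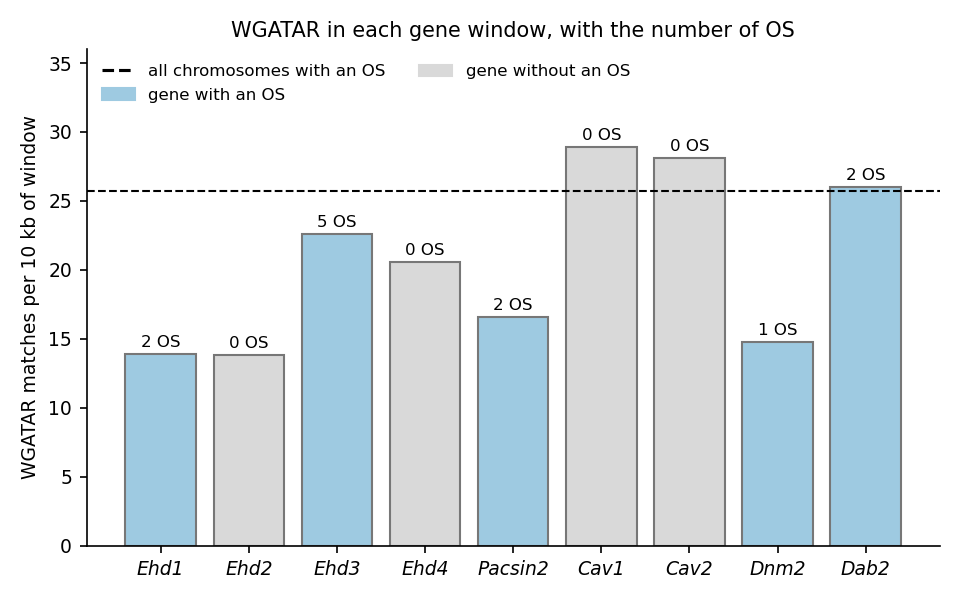
WGATAR matches per 10 kb of window (y axis, from 0) for each of the 9 genes, with its number of OS above the bar, blue bars for genes with an OS and grey bars for genes without. The dashed line marks 25.7 per 10 kb on the chromosomes that hold an OS. The tallest bars, Cav1 at 28.9 and Cav2 at 28.1, belong to genes without an OS, and Ehd1 and Ehd2 differ by 0.1 with 2 and 0 OS.

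Other genes of the same machinery, 76 in 4 lists, were listed by their functions, but with earlier results of these data known. Of these, 31 held an OS (40.8%, 30.4 to 52.0), against 27.7% of all protein-coding genes. Because of that choice nothing is read from such differences, here or for the single lists. An OS in the gene body was held by 13 of the 76, against 7.69% of all. Of 11 genes for caveolar coat proteins and for paralogues of the 9, 2 held an OS (18.2%, 5.14 to 47.7), an interval that holds the 27.7% of all genes. They were Sdpr, the cavin-2 gene, with 3, of lowest number 174, and the dynamin gene Dnm3 with 2. No OS was held by Ptrf, which encodes cavin-1, by the muscle caveolin Cav3, by Dnm1, or by Pacsin1 and Pacsin3.

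Of 26 clathrin coat and adaptor genes, 13 held an OS (50%, 32.1 to 67.9), against the same 27.7%. Epn2, an epsin gene, held 3, and the scaffold gene Itsn1 and the AP-2 subunit gene Ap2a2 held 2 each, as did Cltc and Arrb1, whose leading sites had higher list numbers. Of 16 genes of membrane bending and fission, 11 did (68.8%, 44.4 to 85.8). Arhgap26, which encodes the BAR domain protein GRAF, held 10 OS, all in its body and with 8 as the lowest number, and Snx9 held 3. The endophilin gene Sh3gl1 held 2, as did Synj2. Of 23 recycling endosome genes, 5 did (21.7%, 9.66 to 41.9), near the share of all genes, with 2 each at the small GTPase genes Rab11b and Rab5c and 1 each at Rab11a, Rab5a and Rab11fip1. Fewer genes had an OS for which the nearest coding start was their own: 8 of the 26, 7 of the 16, 4 of the 23, and 21 of all 76. That count was not made over all protein-coding genes. The genes of a list differ in length and some lie close to each other, which these shares do not allow for, and no list was tested against the background.

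Marker genes of liver cell types were counted in the same way. An OS was held by 8 of 8 endothelial markers, such as Pecam1 and Stab2 (Wilson 95% interval 67.6% to 100%) and by 5 of 8 hepatocyte markers (30.6% to 86.3%). It was held by 1 of 8 markers of Kupffer and blood cells, Cd68 (2.24% to 47.1%), and by 0 of 8 markers of stellate cells and fibroblasts (0% to 32.4%). The last 2 intervals hold the 27.7% of all protein-coding genes. These marker lists were also chosen with earlier results of these data known, so nothing is read from the differences between them or to all genes. Occupancy near a gene is no measure of its expression. These counts do not give the cell type in which the sites at Ehd1, Ehd3, Pacsin2, Dnm2 and Dab2 were occupied, which was not tested.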

How the data were processed

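GATA4 ChIP-seq of whole mouse liver was analysed from 3 peak lists. The authors aligned uniquely placed reads to mm9, ran MACS2 and a modified SPP against the input, for each replicate and for merged reads, set thresholds by IDR, and intersected both lists, keeping the SPP coordinates. The submitters' processing notes name Bowtie 0.12.7, MACS2 2.0.10 and bedtools 2.16.1. The score that the authors deposited for each peak is 1000 throughout and was not used further. The input sample entered through the peak calls alone. The study's methods give total reads per replicate, but reads at single sites are not given in the files. Positions were turned to 1-based mm9 coordinates.

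Genes came from GENCODE M1, not the RefGene table of the study. Where a symbol had several records the longest was kept. The sequence was NCBI Build 37. WGATAR was matched exactly on both strands. Lists overlap when they share at least 1 bp. Intervals of shares are Wilson intervals at 95% and cover counting error only, with sites or genes treated as independent. No test was run, since there is 1 ChIP sample. The 9 genes and the other lists were chosen with earlier results of these data known. All 9 genes and all OS assigned to them were named, and of each other list up to 3 genes with the most OS, ties going to the lower list number. The sequence of lowest number at each gene and those with most WGATAR were shown, except at Dab2. Genes tied with these, and those named as holding no OS, were picked after the values were seen. Alternatives were the window, the peak list, the gene model, the assignment, the part of the list, the motif and the stretch scanned. Scripts were tested on simulated data and used samtools 1.23.1, pysam 0.24.0, numpy 2.4.6, scipy 1.17.1 and matplotlib 3.10.9 in Python 3.11.15.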

Additional observations from a re-analysis of the deposited data

How the results depend on the processing

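The count of OS at the 9 genes moved most with the window: 12 within 50 kb became 5 in gene bodies and 7 within 10 kb. The genes with an OS fell from 5 to 3 when only OS numbered up to 2205 were counted. The 76 other genes with an OS went from 31 to 13 with gene bodies and to 18 with those OS. The share of sites with a match rose from 75% to 91.7% with WGATA or GATAR, against 92.9% of all OS. With 500 bp scanned for WGATAR it was also 91.7%, but that share was not counted over all OS. A longer stretch of any DNA holds more matches, at 25.7 per 10 kb on these chromosomes, so nothing is read from that rise. The cause was not tested beyond the narrower or wider search itself. The other 32 of 39 alternative values for the whole set stayed within 1.5 times, or within the interval of the share or median. Among them was the count of 17 OS at the 9 genes within 100 kb. For single genes 15 of 81 values moved. Ehd3 held 0 OS in its body and 1 within 10 kb, Ehd2 held 1 peak in the MACS2 list, Ehd1 held 4 there, and Dab2 held 5 OS within 100 kb. No paired analysis was possible because the labels give 1 ChIP sample and 1 input sample. Without peak strength or the depth at each site, weak and strong sites could not be separated.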
